A study of Mus musculus with 12 samples.

Results

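The genes described here belong to the heat shock response and the unfolded protein response, and were followed across 4 groups of mouse embryonic stem cell RNA libraries. The 10 genes were taken by symbol, among 55416 genes in each count table: the cytosolic chaperone genes Hsph1, Hsp90aa1, Hspb1 and Dnajb1, the mitochondrial chaperonin genes Hspd1 and Hspe1, the endoplasmic reticulum (ER) chaperone gene Hspa5, and the stress transcription factor genes Xbp1, Atf4 and Ddit3. All 10 were among the 17940 genes with enough counts to be tested. The cells were labelled Bl/6J, either wild type (WT) or clone 46, which carries the C48S change (cysteine to serine) in the pluripotency factor Oct4. Each line was sequenced undifferentiated, in medium with the MEK inhibitor PD (1.0 µM), the GSK3 inhibitor CHIR (3.0 µM) and ascorbic acid, and after RA, that is at day 2 in retinoic acid at 1.5 mg/L with the self-renewal cytokine LIF withdrawn, with 3 libraries per group. The mutant line is 1 clone, so the mutation and other properties of that clone cannot be told apart. Whether the inhibitors and ascorbic acid were still present during RA is not stated, so a change with RA is also a change of medium. Nor do the labels tell whether a group's libraries are separate cultures, and the p-values therefore reflect the spread among libraries, possibly a technical one.

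Chaperones bind unfolded proteins and help them fold. In the cytosol and nucleus many of their genes are switched on by heat shock factor 1, which binds heat shock elements, inverted repeats of the letters GAA. In the ER an excess of unfolded protein is sensed by IRE1, ATF6 and PERK: IRE1 splices the Xbp1 transcript into the form that encodes an active factor, ATF6 is cut to a factor that raises ER chaperone genes such as Hspa5, and PERK phosphorylates eIF2-alpha, which slows translation while that of Atf4 rises. Undifferentiated embryonic stem cells are known for high levels of many cytosolic chaperones. Counts per gene do not separate spliced from unspliced Xbp1 transcript and say nothing of the translation of Atf4.

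Library totals lay between 8678088 and 13597098 counts. One library, C48S undifferentiated replicate 3, was unlike its group's other libraries (chi-square per degree of freedom 9.88 and 9.66, against at most 2.26 for any other pair of replicates), and results that depend on it are given with and without it. Of the 8 pluripotent cell markers and the 16 fibroblast and feeder cell markers, none was at 0 in any group. Summed over the markers, pluripotency genes stood at 4022 to 4129 CPM (counts per library, scaled to a common library size) in WT and 4529 to 4673 in C48S before RA, and at 132 to 144 in WT and 632 to 669 in C48S after RA. After RA the sum was therefore higher in C48S than in WT, beside every comparison of the lines after RA. By gene, in the test given below, 3 of the 8 were higher and 3 lower (4 without replicate 3) in C48S before RA. Their median log2 was 0.03, and 27.5% and 28.1% of all genes were higher and lower. The higher sum before RA was thus not shared by all the markers. After RA 8 of the 8 were higher, with a median of 2.26, where 28.8% of all genes were. Fibroblast and feeder genes summed to 703 to 735 CPM in WT and 786, 755 and, in replicate 3, 959 CPM in C48S before RA, and to 585 to 613 and 596 to 606 CPM after RA. The near-equal sums after RA hid differences by gene. Of the 16, 3 were higher (4 without replicate 3) and 8 lower in C48S after RA, with a median log2 of -0.38. Of all genes, 28.8% were higher and 25.7% lower. The part of these differences in the results below was not tested, and in bulk RNA fewer cells of a type and less RNA per cell cannot be told apart. Pou5f1, which encodes Oct4, was at 585 ± 5.10, 557 ± 83.4, 23.0 ± 1.07 and 68.3 ± 3.20 CPM (SD, n = 3) in WT and C48S before RA and WT and C48S after RA. Protein-coding genes of chromosomes 6, 8 and 11 were shifted as whole chromosomes in C48S against WT, by medians of 0.58, 0.52 and -0.53 on the log2 scale before RA and 0.63, 0.58 and -0.48 after RA, which bears on Dnajb1 (chromosome 8) and Xbp1 (chromosome 11).

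Before RA, 9 of the 10 genes differed between the lines at an adjusted p under 0.05 in edgeR's quasi-likelihood test, 7 lower in C48S and 2 higher. Among all genes tested 55.6% passed in either direction, 27.5% higher and 28.1% lower. After RA, 7 of the 10 differed, 3 higher and 4 lower, against 54.5% of all genes (28.8% higher and 25.7% lower). With RA, 9 of the 10 changed in WT, 8 falling and only Ddit3 rising, against 78.3% of all genes (40.9% higher and 37.4% lower), so that the count in either direction is near the background. The 10 genes were chosen with earlier results of these data known, so how they split by direction is description only. In C48S 9 also changed, 7 falling and 2 rising, Ddit3 and Xbp1, against 73.6% (39.0% higher and 34.6% lower). The RA change differed between the lines for 8 of the 10, against 39.4% of all genes. The log2 change in C48S minus that in WT was above 0 for 5 and below 0 for 3, against 22.2% and 17.2% of all genes. The median log2 change of the 10 genes was -0.34 and -0.01 for C48S against WT before and after RA, -1.01 for RA in WT, -0.49 for RA in C48S, and 0.30 for the difference of the RA changes, where the medians of all genes were 0.00, 0.02, 0.06, 0.05 and 0.02. The groups are shared between these comparisons, so the columns of values are not independent of each other.

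**Figure D1:**
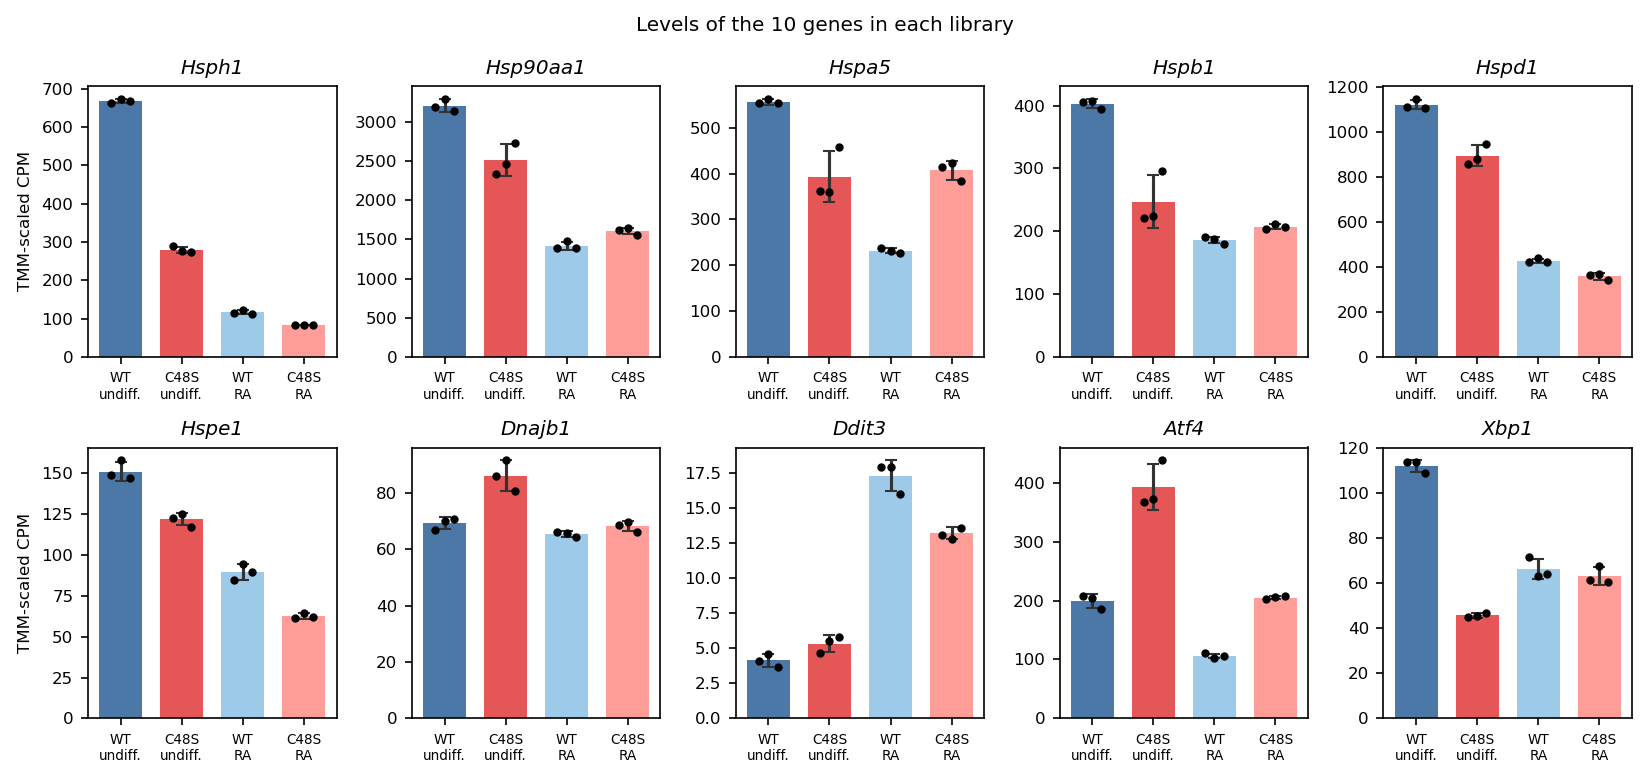
Level of each of the 10 genes in CPM (scaled by TMM) in WT and C48S cells, undifferentiated (undiff.) and at day 2 of RA. Bars are means of 3 libraries, error bars the SD and points the libraries; Hsph1 falls from 668 CPM in undifferentiated WT to 83.9 CPM in C48S after RA, Atf4 is higher in C48S in both states and Ddit3 is higher after RA in both lines.

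**Figure D2:**
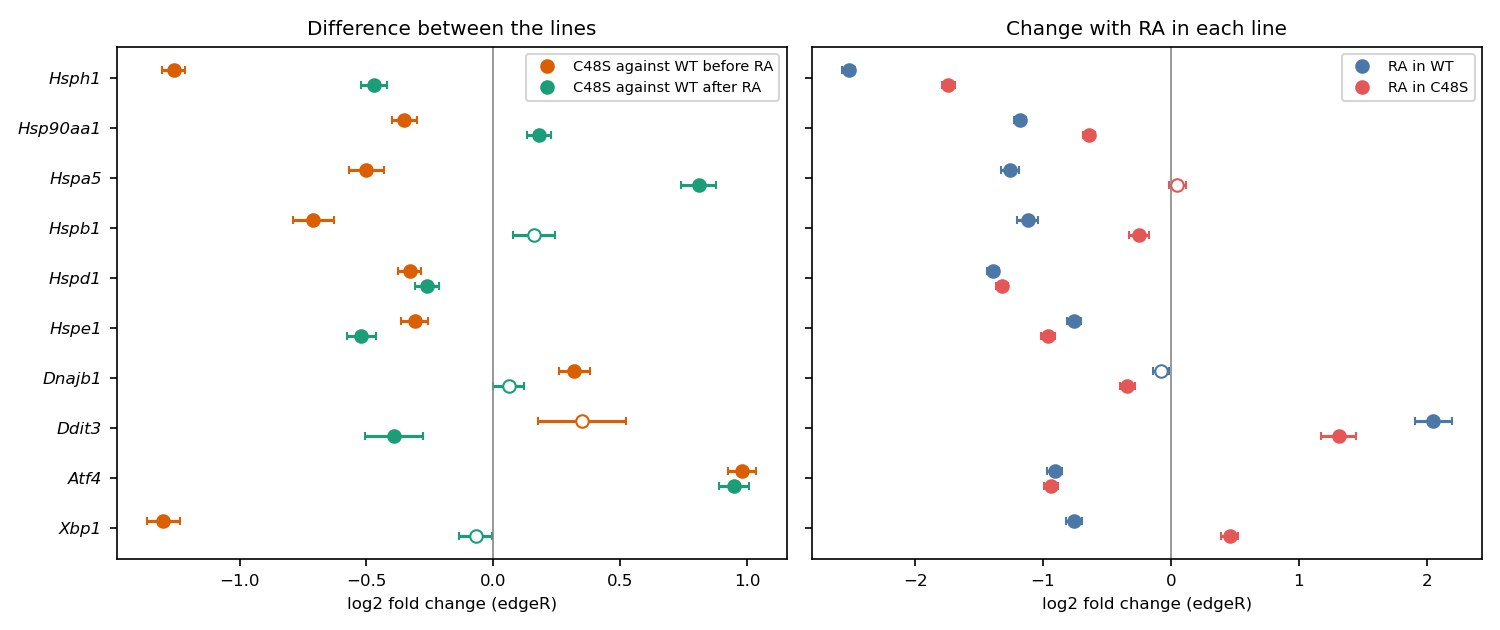
Log2 fold changes of the 10 genes in edgeR with their standard errors, on the left C48S against WT before and after RA and on the right RA against undifferentiated in WT and in C48S. Filled points passed an adjusted p under 0.05 and open points did not. Hspa5, Hsp90aa1, Hspb1 and Ddit3 lie on opposite sides of 0 before and after RA, with both points filled for Hspa5 and Hsp90aa1 only. In the RA changes of the lines Xbp1 and Hspa5 lie on opposite sides of 0, with both points filled for Xbp1 only.

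Hsph1 (ENSMUSG00000029657, GRCm39 chromosome 5, 149537752 to 149559841, minus strand) encodes HSP105/HSP110, a large chaperone that acts as a nucleotide exchange factor for HSP70 proteins. Undifferentiated WT libraries had 662, 673 and 669 CPM and undifferentiated C48S libraries 289, 276 and 274 CPM. With RA it reached 115, 121 and 113 CPM in WT and 83.5, 83.9 and 84.3 CPM in C48S. No 2 of the 4 groups overlapped, and their order was the same at each pairwise step: WT above C48S in either state, and undifferentiated above RA in either line. The gene was 2.39-fold lower in C48S before RA (log2 -1.26 ± 0.0451 SE, adjusted p = 1.15e-22) and 1.39-fold lower after RA (-0.47 ± 0.0499, adjusted p = 4.70e-10). It fell 5.73-fold with RA in WT (-2.52 ± 0.0480), the largest change of the 10 genes in any of the 4 comparisons, and 3.33-fold in C48S (-1.74 ± 0.0486), with a difference of 0.78 ± 0.0670 between the lines (adjusted p = 7.80e-12). On chromosome 5 only 6.35% of 866 protein-coding genes had a lower value than Hsph1 for C48S against WT before RA.

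The stretch just before the start is shown for Hsph1, Hspb1 and the Hspd1 and Hspe1 pair, textbook heat shock factor targets with a matched element. It is taken from the RefSeq promoter windows of the older build GRCm38.p6. These genes fell with RA in both lines, but 8 of the 32 cytosolic heat shock genes listed below rose in each line. A link between the elements and the RA changes was not tested. Windows of 250 bases before to 50 bases from the start on were there for 9 of the 10 genes, all but Hsp90aa1, which was not searched. They were searched on both strands for the heat shock element of 2 units, written GAANNTTC or TTCNNGAA, and for its form of 3 units, with a further NN and GAA or TTC. A match is a match of letters and not a measured site. The capitals mark the matched elements, with those that overlap run together, and the window of Hspe1 serves Hspd1 as well, which starts close by on the opposite strand.
Hspe1: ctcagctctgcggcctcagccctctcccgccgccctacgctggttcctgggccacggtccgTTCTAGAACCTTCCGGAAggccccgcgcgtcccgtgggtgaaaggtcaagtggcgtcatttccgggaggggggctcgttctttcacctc
Hsph1: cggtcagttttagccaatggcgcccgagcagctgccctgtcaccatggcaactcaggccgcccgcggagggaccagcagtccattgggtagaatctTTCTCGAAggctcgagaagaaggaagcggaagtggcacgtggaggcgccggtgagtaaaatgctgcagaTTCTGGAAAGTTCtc
Hspb1: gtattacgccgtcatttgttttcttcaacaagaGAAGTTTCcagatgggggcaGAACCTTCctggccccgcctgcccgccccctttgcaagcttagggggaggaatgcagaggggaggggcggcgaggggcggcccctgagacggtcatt
The Hspe1 stretch is chromosome 1, 55087998 to 55088147, plus strand, that of Hsph1 chromosome 5, 149636286 to 149636465, minus strand, and that of Hspb1 chromosome 5, 135887769 to 135887918, plus strand. Those of Hspe1 and Hspb1 are the 150 bases before the start, and that of Hsph1 also holds the 30 bases from the start on. In Hspe1 a run of elements spans the positions 89 to 72 bases before the start and holds 2 overlapping 3-unit forms, at chromosome 1, 55088059 to 55088076, and the same bases lie 144 to 127 bases before a start of Hspd1. Hsph1 holds a 2-unit element 54 to 47 bases before the start shown and a 3-unit form just after it. Counted from a further start of Hsph1, the 2-unit element lies 33 to 26 bases before. The window of a further start of Hspd1 held neither form. Hspb1 has 2-unit elements 117 to 110 and 97 to 90 bases before its start. The 3-unit form was found in 0.6% of 32851 windows and the 2-unit form in 15.06%. Neither form was found in the windows of Dnajb1, Hspa5, Ddit3, Atf4 or Xbp1.

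Hsp90aa1 (ENSMUSG00000021270, chromosome 12, 110657039 to 110669162, minus strand) encodes the stress-inducible cytosolic HSP90, which matures kinases and steroid receptors. It was at 3197, 3295 and 3134 CPM in undifferentiated WT, 2330.2, 2468 and 2737 in undifferentiated C48S, 1393, 1475 and 1387 in WT after RA and 1619, 1640.4 and 1560.2 in C48S after RA. The lines did not overlap in either state, but their order turned, with C48S below WT before RA and above it after RA. The difference was -0.35 ± 0.0479 before RA (adjusted p = 8.88e-08) and 0.18 ± 0.0481 after RA (adjusted p = 0.00185), that is 1.28-fold lower and 1.13-fold higher. The fall with RA was -1.18 ± 0.0486 in WT and -0.64 ± 0.0481 in C48S, and these differed by 0.53 ± 0.0679 (adjusted p = 5.85e-08). Its constitutive paralog Hsp90ab1, looked at with its values known, did not turn in this way: it was lower in C48S before RA (-0.20 ± 0.0401) and after RA (-0.17 ± 0.0402), and its RA changes differed by 0.04 ± 0.0567 (adjusted p = 0.665). Per kilobase of exon, Hsp90aa1 stood at 0.458 to 0.467 of the level of Hsp90ab1 in undifferentiated WT. In undifferentiated C48S the ratio was 0.381, 0.415 and, in replicate 3, 0.454. It was 0.345 to 0.369 in WT after RA and 0.452 to 0.454 in C48S after RA.

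Hspb1 (ENSMUSG00000004951, chromosome 5, 135916773 to 135918417, plus strand) encodes HSP27, a small heat shock protein that holds unfolded proteins and binds actin. It had 406, 407 and 394 CPM in undifferentiated WT and 221, 224 and, in replicate 3, 295 CPM in undifferentiated C48S. The RA libraries had 190.3, 187 and 180.0 CPM for WT and 204, 212 and 207 CPM for C48S. WT undifferentiated cells stood well above the other 3 groups, none of which overlapped. Before RA the gene was 1.63-fold lower in C48S (-0.71 ± 0.0805, adjusted p = 1.45e-06), and after RA the difference of 0.16 ± 0.0822 did not pass the test (adjusted p = 0.118), though it did without C48S undifferentiated replicate 3 (adjusted p = 1.12e-04), in a fit of the compared groups alone (7.78e-04) and with no low-count filter (0.0125). It fell with RA in WT by 1.12 on the log2 scale (adjusted p = 2.89e-09) and in C48S by 0.25 (adjusted p = 0.0123), the latter by 0.10 without replicate 3. Between the lines these log2 changes were 0.87 ± 0.115 apart (adjusted p = 1.64e-05).

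Dnajb1 (ENSMUSG00000005483, chromosome 8, 84334822 to 84339282, plus strand) encodes an HSP40 protein that delivers clients to HSP70 and is itself a heat shock target. Its levels were 66.7, 70.1 and 70.7 CPM in undifferentiated WT, 86.0, 91.5 and 80.8 in undifferentiated C48S, 66.2, 65.9 and 64.2 in WT after RA and 68.5, 69.6 and 66.2 in C48S after RA. Undifferentiated C48S lay above the other groups, WT and C48S after RA overlapped, and the 4 group means spanned no more than 0.39 on the log2 scale, the least of the 10 genes. The difference between the lines was 0.32 ± 0.0608 before RA (adjusted p = 3.52e-05) and 0.06 ± 0.0612 after RA (adjusted p = 0.452). Both values lay below the median of chromosome 8: 30.6% of its 739 genes had a lower value before RA and 13.0% after RA. With RA the change in WT was -0.08 ± 0.0620 (adjusted p = 0.230), and in C48S the gene fell by 0.34 (adjusted p = 5.85e-06), and these changes differed by -0.26 ± 0.0862 (adjusted p = 0.0160).

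**Figure D3:**
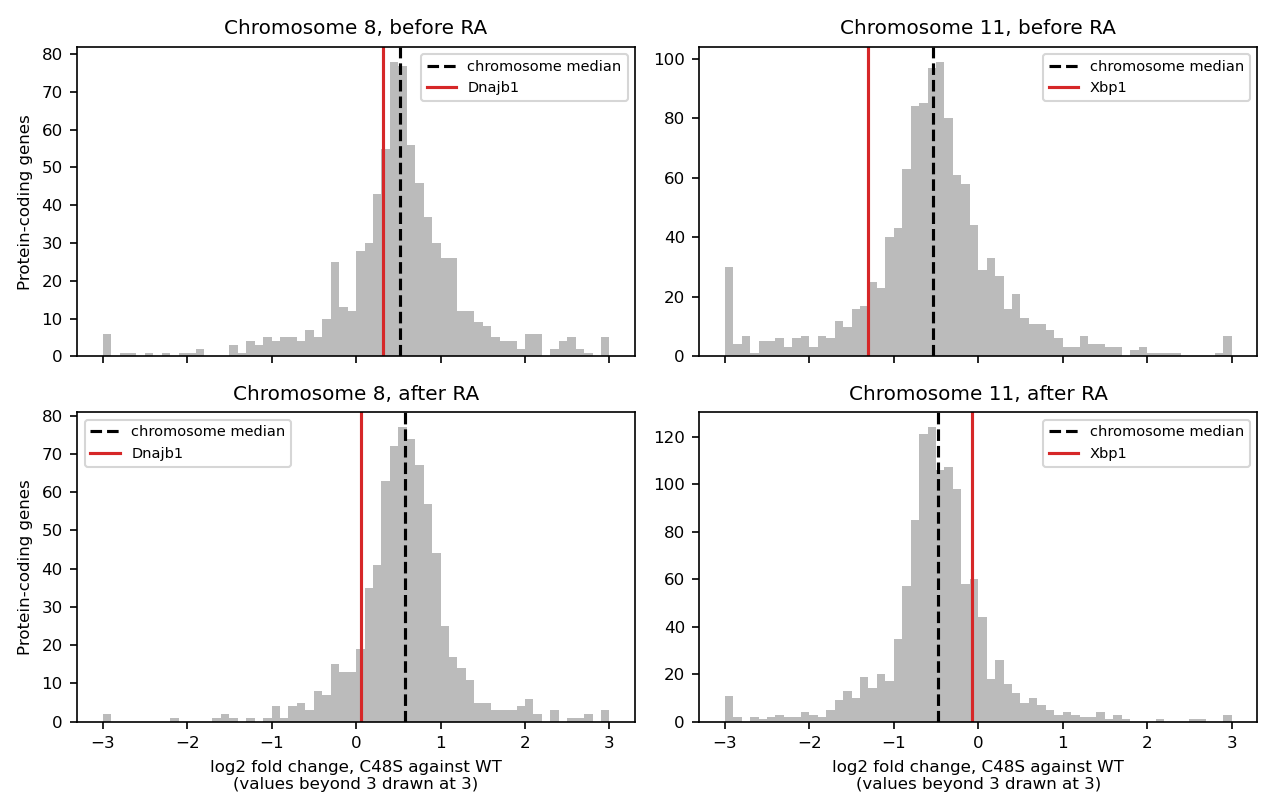
Number of protein-coding genes by log2 fold change of C48S against WT on chromosomes 8 and 11, before and after RA, with the chromosome median dashed and Dnajb1 or Xbp1 in red. Dnajb1 lies below the median of chromosome 8 in both states, and Xbp1 lies below the median of chromosome 11 before RA (-1.30 against -0.53) and above it after RA (-0.07 against -0.48).

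Hspd1 (ENSMUSG00000025980, chromosome 1, 55116994 to 55127402, minus strand) and Hspe1 (ENSMUSG00000073676, chromosome 1, 55127291 to 55130466, plus strand) encode HSP60 and HSP10, the barrel and the lid of the mitochondrial chaperonin. They lie head to head, and their gene spans overlap at the starts on opposite strands, which the counting kept apart. Hspd1 was at 1109.5, 1145 and 1105 CPM in undifferentiated WT, 854, 880.1 and 944 in undifferentiated C48S, 423, 437 and 419.5 in WT after RA and 362, 369 and 339 in C48S after RA. Hspe1 was at 149, 158 and 147, at 123, 125 and 117, at 84.7, 94.4 and 89.9, and at 61.6, 64.5 and 62.0 CPM in the same order. For both genes the 4 groups kept 1 order without overlap: WT above C48S, and undifferentiated above RA.

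Hspd1 was lower in C48S before RA (-0.33 ± 0.0459, adjusted p = 1.61e-07) and after RA (-0.26 ± 0.0470, adjusted p = 1.64e-05), and so was Hspe1 (-0.31 ± 0.0536, adjusted p = 5.44e-06, and -0.52 ± 0.0575, adjusted p = 1.66e-09). Hspd1 fell 2.62-fold with RA in WT and 2.50-fold in C48S, with a difference of 0.07 ± 0.0656 between the log2 changes that did not pass the test (adjusted p = 0.433). Hspe1 fell less, 1.69-fold in WT and 1.94-fold in C48S. Its RA changes differed by -0.20 ± 0.0786 (adjusted p = 0.0381), a call that was lost when any of 6 single libraries was left out: WT undifferentiated replicate 1 (adjusted p = 0.0642) or 3 (0.0679), C48S undifferentiated replicate 1 (0.0552), WT RA replicate 2 (0.113), and C48S RA replicate 1 (0.0774) or 3 (0.0650). Per kilobase of exon the ratio of Hspe1 to Hspd1 was 0.239 to 0.247 in undifferentiated WT. In undifferentiated C48S it was 0.259, 0.254 and, in replicate 3, 0.223. The lines overlapped there only through replicate 3, and without it C48S lay above WT. After RA the ratio rose to 0.358 to 0.387 in WT and 0.305 to 0.328 in C48S, which do not overlap. Processed copies named after Hspd1 (5) and Hspe1 (6) held counts equal to 0.716% and 0.273% of those of the parent gene over all libraries, so reads that fit a copy as well may be missing from these levels.

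**Figure D4:**
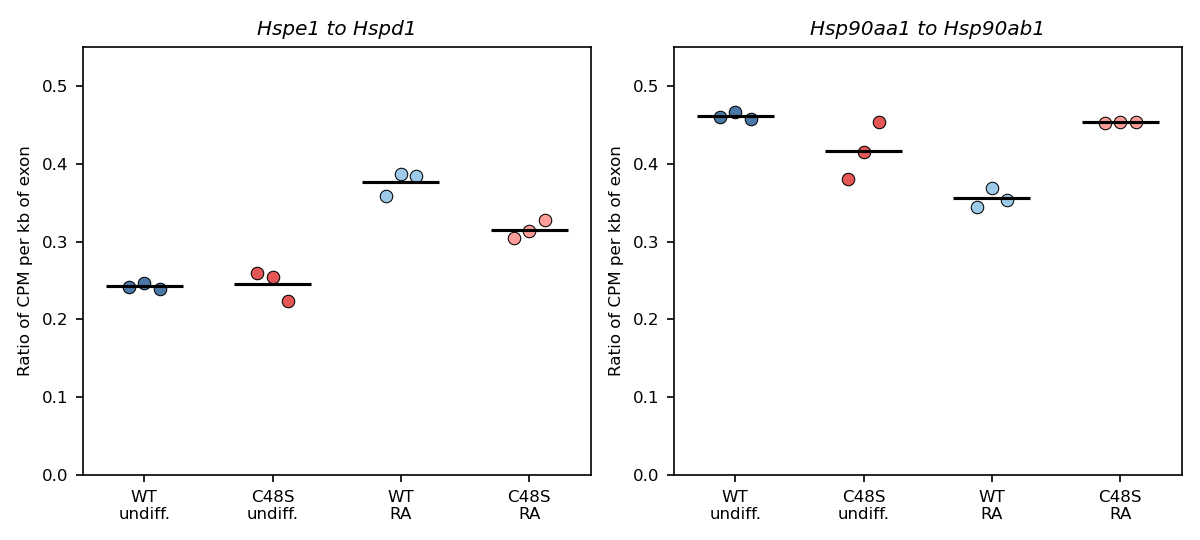
Ratio of Hspe1 to Hspd1 (left) and of Hsp90aa1 to Hsp90ab1 (right) in CPM per kilobase of exon, with 1 point per library and a line at the mean of each group of 3. The Hspe1 to Hspd1 ratio is higher after RA in both lines, and the Hsp90aa1 to Hsp90ab1 ratio is lowest in WT after RA, at 0.345 to 0.369.

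Hspa5 (ENSMUSG00000026864, chromosome 2, 34661982 to 34667559, plus strand) encodes BiP, the HSP70 of the ER, which also holds the unfolded protein sensors inactive. Its level was 553, 563 and 553 CPM in undifferentiated WT and 362, 359 and, in replicate 3, 457 CPM in undifferentiated C48S. At day 2 of RA it was 238, 232 and 226 CPM for WT and 415, 424 and 383 CPM for C48S. The order of the lines turned with RA. The C48S libraries before and after RA overlapped only through replicate 3, and without it those before RA lay below those after RA.

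Before RA Hspa5 was 1.42-fold lower in C48S (-0.50 ± 0.0680, adjusted p = 2.07e-06), and after RA it was 1.75-fold higher (0.81 ± 0.0693, adjusted p = 3.05e-09). It fell 2.40-fold with RA in WT (-1.26 ± 0.0696, adjusted p = 6.39e-13), while the change in C48S was 0.05 ± 0.0680 (adjusted p = 0.487). That last value rested on single libraries: without C48S undifferentiated replicate 3 it was 0.18 and passed the test (adjusted p = 9.50e-06), and without replicate 2 it was -0.03. The lines' RA changes were apart by 1.31 ± 0.0971 (adjusted p = 6.14e-10), the largest such difference of the 10 genes, and by 1.43 without replicate 3. The element through which ATF6 and NF-Y are known to act on ER chaperone genes is CCAAT, any 9 bases and CCACG, and it is shown for Hspa5, the only one of the genes with a window in which it was found, with the match in capitals, in the 150 bases before the start (GRCm38.p6, chromosome 2, 34771940 to 34772089, plus strand).
Hspa5: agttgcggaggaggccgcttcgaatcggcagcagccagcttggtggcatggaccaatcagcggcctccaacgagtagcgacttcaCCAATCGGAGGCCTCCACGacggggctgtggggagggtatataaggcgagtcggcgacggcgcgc
The match lies 65 to 47 bases before the start, and the element was found in 0.12% of all windows. CCAAT alone was found in 37.41%, in both orientations. The element TGACGTGG of the XBP1 factor (0.68% of windows) and the amino acid response core TGATGNAA of ATF4 (3.97%) were found in the window of none of the 9 genes.

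Xbp1 (ENSMUSG00000020484, chromosome 11, 5470659 to 5475893, plus strand), the target of IRE1 splicing, stood at 114, 114 and 109 CPM in undifferentiated WT and at 44.8, 45.4 and 46.8 CPM in undifferentiated C48S. RA libraries of WT had 71.4, 63.4 and 64.2 CPM and those of C48S 61.3, 67.7 and 60.3 CPM. The lines were far apart before RA and overlapped after it. Before RA Xbp1 was 2.46-fold lower in C48S (-1.30 ± 0.0646, adjusted p = 1.28e-18), and after RA the difference was -0.07 ± 0.0637 (adjusted p = 0.355). With RA it fell in WT (-0.76 ± 0.0620, adjusted p = 2.32e-13) and rose in C48S (0.46 ± 0.0663, adjusted p = 1.34e-07), and the changes differed by 1.23 ± 0.0907 (adjusted p = 1.96e-13). Of the 1167 genes of chromosome 11, 12.4% had a lower value than Xbp1 for C48S against WT before RA and 81.3% after RA.

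Atf4 (ENSMUSG00000042406, chromosome 15, 80139385 to 80141742, plus strand) encodes the factor of the integrated stress response, which raises genes of amino acid supply and redox balance. It was at 208, 204 and 186 CPM in undifferentiated WT, 367, 373 and 438 in undifferentiated C48S, 110.4, 103 and 105 in WT after RA and 202, 206 and 207 in C48S after RA. Both groups of C48S stood above WT of the same state, and C48S after RA overlapped undifferentiated WT. Atf4 was 1.97-fold higher in C48S before RA (0.98 ± 0.0562, adjusted p = 1.68e-16) and 1.93-fold higher after RA (0.95 ± 0.0589, adjusted p = 1.56e-15). It fell with RA 1.88-fold in WT and 1.92-fold in C48S, and the log2 changes differed by -0.03 ± 0.0813 (adjusted p = 0.832). Of the 10 genes, Atf4 alone was higher in C48S at an adjusted p under 0.05 in both states.

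Ddit3 (ENSMUSG00000025408, chromosome 10, 127126643 to 127132157, plus strand) encodes CHOP, a factor downstream of ATF4 that is linked to cell death under lasting ER stress. Its counts were low before RA, 39, 55 and 34 in WT and 55, 52 and 56 in C48S, which is 4.09, 4.62 and 3.69 CPM in WT and 4.67, 5.54 and 5.79 CPM in C48S. With RA the WT libraries reached 17.9, 17.9 and 16.0 CPM and the C48S libraries 13.1, 12.8 and 13.6 CPM. Ddit3 was the one gene of the 10 that was higher after RA in both lines, with no overlap of the states. It rose 4.14-fold in WT (2.05 ± 0.143, adjusted p = 3.48e-15) and 2.48-fold in C48S (1.31 ± 0.139, adjusted p = 2.38e-10), and these changes differed by -0.74 ± 0.208 (adjusted p = 0.00458). The difference between the lines was 0.35 ± 0.174 before RA (adjusted p = 0.0917), and after RA the gene was 1.31-fold lower in C48S (-0.39 ± 0.114, adjusted p = 0.00395). Atf4 and Ddit3, which follow each other in the textbook pathway, moved in opposite directions with RA in both lines.

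Other genes of the pathways were taken from 6 lists, which include the 10 genes, and the lists are described by counts and medians. The lists too were chosen with earlier results of these data known, so their counts are description only. Among 32 cytosolic heat shock genes, 8 were higher and 16 lower in C48S before RA (median -0.22), and 4 were higher and 15 lower after RA (median -0.11), where 27.5% and 28.1% of all genes were higher and lower before RA and 28.8% and 25.7% after RA. Without C48S undifferentiated replicate 3 the 4 became 8. Among the 27 genes outside chromosomes 6, 8 and 11, 5 were higher and 15 lower before RA, and 2 higher and 14 lower after RA. With RA 19 fell and 8 rose in WT, and 22 fell and 8 rose in C48S, where 37.4% and 34.6% of all genes fell and 78.3% and 73.6% were called in either direction, the former near the share of the list in WT. Dnajb6, an HSP40 gene that keeps aggregation-prone proteins soluble, was at 480.4 ± 4.67 CPM in undifferentiated WT and 145 ± 5.75 in undifferentiated C48S (log2 -1.73 ± 0.0506), and fell to 91.9 ± 2.64 and 78.5 ± 5.55 CPM after RA. It was the gene of the list with the largest fall with RA in WT after Hsph1. Not all of the family went down: Hspa4l, an HSP110 relative of Hsph1, rose with RA from 10.8 ± 0.636 to 44.0 ± 2.7 CPM in WT and from 8.23 ± 0.938 to 17.2 ± 1.98 CPM in C48S, and was lower in C48S after RA (-1.36 ± 0.0961, adjusted p = 2.63e-14). Hspa1a, the inducible HSP70 gene, was at 3.10 ± 0.128 CPM before and 12.1 ± 0.385 after RA in WT, values that are uncertain because Hspa1b is a near-identical copy.

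All 8 subunit genes of TRiC, the cytosolic chaperonin that folds actin and tubulin, fell with RA in both lines, with medians of -1.0 in WT and -0.86 in C48S, where 37.4% and 34.6% of all genes fell. Before RA 7 of the 8 were lower in C48S and Cct7 was higher, at 723 to 1081 CPM against 545 to 562 CPM in WT. Cct7 lies on chromosome 6 and Cct4, the lowest of the 8 at -0.85 ± 0.0491, on chromosome 11, both shifted in the direction of their chromosome. After RA 4 of the 8 were lower in C48S and 1 was higher. On the other chromosomes 6 of 6 were lower before RA, with a median of -0.29, and 3 of 6 after RA, with a median of -0.10. The RA changes differed for 2 of the 8, and for 7 without C48S undifferentiated replicate 3.

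Of 16 mitochondrial chaperones and proteases, 10 fell and 3 rose with RA in WT and 12 fell and 2 rose in C48S. In WT the share called in either direction is near the 78.3% of all genes, of which 37.4% fell, and in C48S 73.6% of all genes were called and 34.6% fell. Hspa9, the mitochondrial HSP70, fell in WT by 0.92 on the log2 scale (880.4 ± 11.3 to 465 ± 7.77 CPM). Atf5, a factor of the mitochondrial unfolded protein response, went the other way: it rose with RA from 10.5 ± 1.18 to 21.8 ± 1.45 CPM in WT and from 21.1 ± 1.15 to 50.2 ± 1.08 CPM in C48S, and was higher in C48S in both states (1.02 ± 0.108 and 1.20 ± 0.0857). Between the lines, 4 were higher and 7 lower in C48S before RA and 5 higher and 7 lower after RA, against 27.5% and 28.1% of all genes before and 28.8% and 25.7% after RA, and the 5 became 3 when any of WT RA replicates 1, 2 and 3 or C48S RA replicates 1 and 2 was left out. Among the 14 genes of the list outside chromosomes 6, 8 and 11, 2 were higher and 7 lower before RA, and 3 higher and 7 lower after RA.

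Of 26 ER chaperones and genes of ER-associated degradation, 16 were lower and 6 higher in C48S before RA (median -0.38), and 9 were lower and 11 higher after RA (median 0.02), where 28.1% and 27.5% of all genes were lower and higher before RA and 25.7% and 28.8% after RA. The signed log2 value for RA was higher in C48S than WT for 17 and lower for 4, against 22.2% and 17.2% of all genes. A higher value can be a weaker fall as well as a stronger rise. Hsp90b1, which encodes the ER HSP90 GRP94, fell with RA from 907 ± 21.9 to 352 ± 2.07 CPM in WT and from 614 ± 24.9 to 525 ± 8.99 CPM in C48S, a difference of 1.14 ± 0.0624 (adjusted p = 6.64e-17). Hyou1, an exchange factor for BiP, fell from 387 ± 3.57 to 149 ± 6.96 CPM in WT and from 311 ± 12.1 to 218 ± 2.54 CPM in C48S. Calr, the lectin chaperone calreticulin, and Pdia4, a disulfide isomerase, stood higher in C48S after RA by 1.18 ± 0.0477 and 1.14 ± 0.0494, and they lie on chromosomes 8 and 6. Among the 19 genes of the list on other chromosomes, 2 were higher and 13 lower in C48S before RA (median -0.42), and 7 higher and 6 lower after RA (median 0.01). Herpud1, a degradation factor and textbook target of the response (chromosome 8), went against Hspa5 before RA, at 27.4 ± 3.03 CPM in C48S against 8.80 ± 1.16 in WT.

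Of 15 sensors and regulators of the unfolded protein response, 6 were higher and 4 lower in C48S before RA, and 7 were higher and 1 lower after RA. The number called in either direction after RA is near the background share of 54.5% (55.6% before RA). Among the 10 genes of the list outside chromosomes 6, 8 and 11, 4 were higher and 2 lower before RA, and 4 higher and none lower after RA. Ern1, which encodes the sensor IRE1-alpha and lies on chromosome 11 as Xbp1 does, was at 39.1 ± 2.72 CPM in undifferentiated WT and 22.2 ± 0.490 in undifferentiated C48S (-0.81 ± 0.0864), and after RA at 48.6 ± 3.75 and 35.4 ± 1.34 CPM (-0.46 ± 0.0782). Like Xbp1 it rose with RA in C48S (0.67 ± 0.0858), but it rose in WT as well (0.32 ± 0.0789).

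Among 25 integrated stress response targets, 18 were higher and 2 lower in C48S before RA (median 0.50), where 27.5% of all genes were higher, and 18 higher and 5 lower after RA (median 0.57), where 28.8% were. Of these genes 6 lie on chromosomes 6 and 8, and among the other 19 the counts were 12 higher and 2 lower before RA (median 0.43) and 12 higher and 5 lower after RA (median 0.50). Nupr1, a small stress-induced chromatin protein gene, was at 25.8 ± 1.77 CPM in C48S against 9.38 ± 1.64 in WT before RA and at 27.1 ± 1.66 against 6.89 ± 1.26 after RA. Asns, asparagine synthetase (chromosome 6), fell with RA from 661 ± 12.6 to 134 ± 1.18 CPM in WT and from 819 ± 69.6 to 511 ± 18.9 CPM in C48S, so that the lines differed by 1.93 ± 0.0533 after RA. Phgdh and Psat1, enzymes of serine synthesis, were the 2 that were lower in C48S before RA (-0.94 ± 0.0781 and -0.17 ± 0.0493). With RA 16 of the 25 fell and 7 rose in WT, and 14 fell and 5 rose in C48S, where the 5 became 3 without C48S undifferentiated replicate 2. In C48S the number called in either direction is near the 73.6% of all genes called, and 34.6% of all genes fell there, while in WT 78.3% were called and 37.4% fell. As with Ddit3, the stress factor genes Atf3 and Ddit4 rose, Atf3 from 1.11 ± 0.404 to 12.9 ± 0.670 CPM and Ddit4, an inhibitor of mTORC1, from 40.0 ± 0.326 to 305 ± 9.29 CPM in WT.

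**Figure D5:**
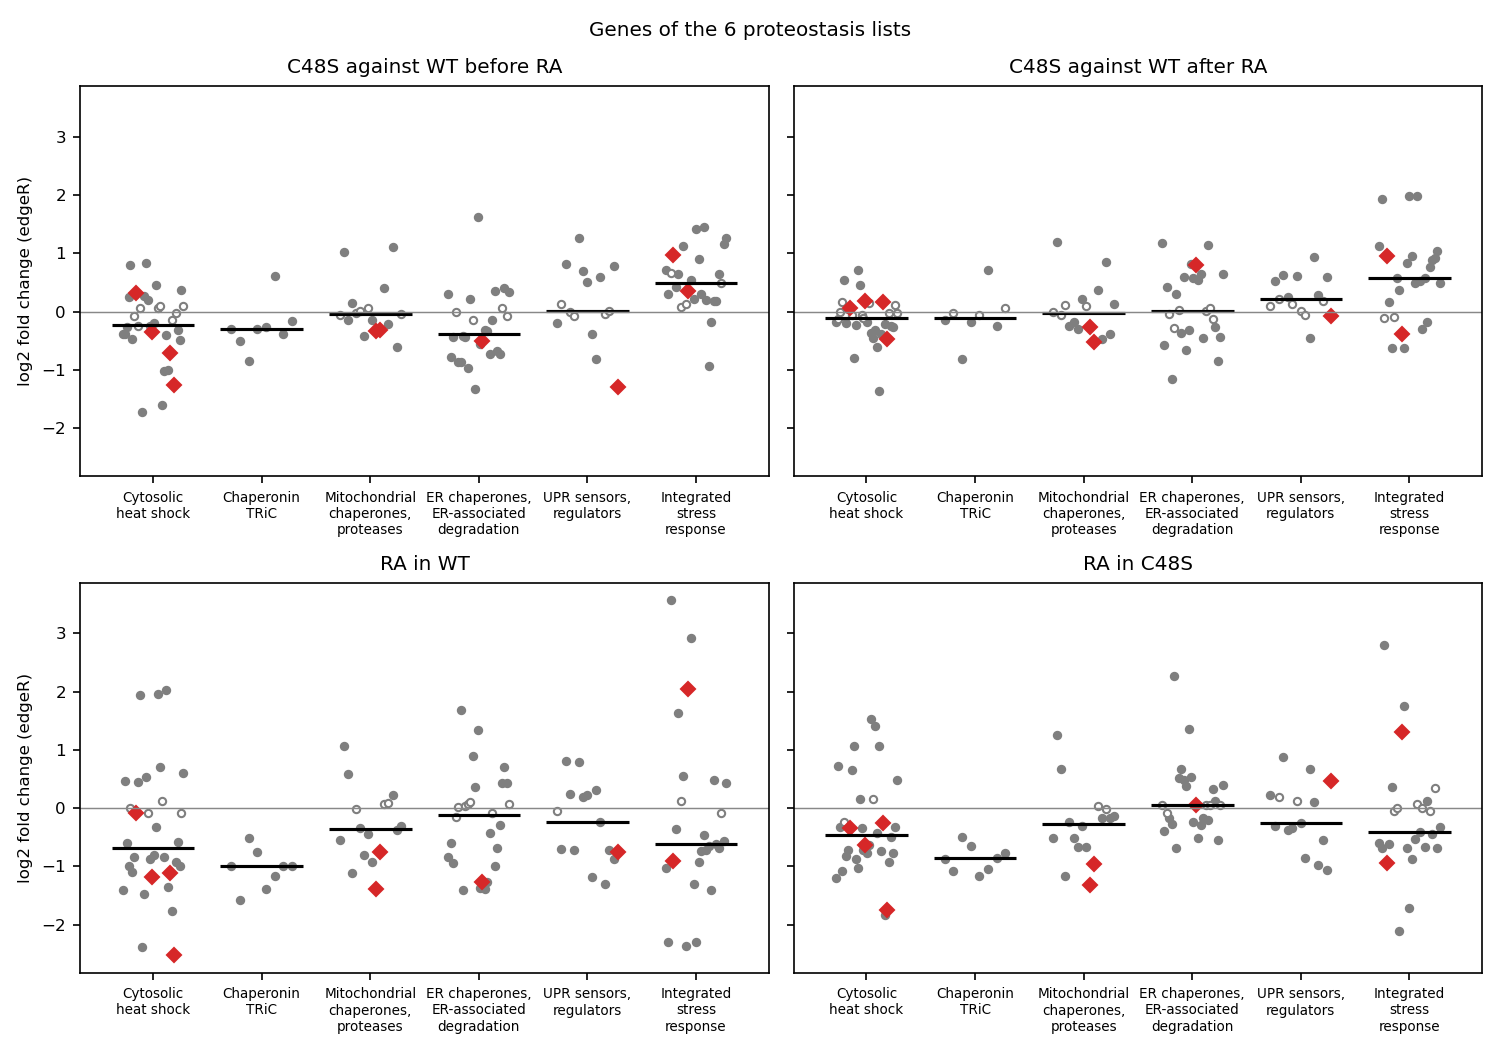
Log2 fold changes of the genes of 6 lists (UPR, unfolded protein response) in 4 comparisons, with 1 point per gene and a bar at the list's median. Red diamonds are the 10 genes, drawn filled whether or not they passed the test. Points of the other genes are filled where the adjusted p was under 0.05 and open where it was not. With RA all 8 TRiC genes lie below 0 in both lines, and for C48S against WT the median of the integrated stress response list lies at 0.50 before and 0.57 after RA.

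Compared per kilobase of exon in undifferentiated WT, the 10 genes ran from Hsp90aa1 (816 ± 20.7 CPM per kilobase), Hspd1 (424 ± 8.33) and Hspb1 (390.4 ± 7.32) through Hspa5 (132 ± 1.36), Hspe1 (103 ± 3.93), Hsph1 (91.9 ± 0.793) and Atf4 (84.6 ± 4.84) to Xbp1 (34.6 ± 0.773), Dnajb1 (21.6 ± 0.677) and Ddit3 (2.41 ± 0.273). Atf4 stood above Hspe1 and Hsph1 in C48S both before RA (166 ± 16.7 against 82.6 ± 2.63 and 38.5 ± 1.10) and after RA (86.9 ± 1.08 against 42.6 ± 1.06 and 11.5 ± 0.0596). Hspb1 stood above Hspd1 after RA in both lines, at 180.2 ± 5.09 against 162 ± 3.5 in WT and 201 ± 3.72 against 135 ± 5.87 in C48S.

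By the root mean square difference of centred log2 CPM over the 12 libraries, the protein-coding gene most like each of the 10 was sought among 9944 others with a mean of at least 10 CPM (9945 for Ddit3). The value is a description, and the libraries share their groups. Nearest to Hspd1 was Ahsa1 (0.0637), the activator of the HSP90 ATPase, followed by Riok2 and Dnah8, whereas Hspe1 held rank 537. Nearest to Atf4 was Mthfd2 (0.0606), a mitochondrial folate enzyme gene and itself on the list of integrated stress response targets, followed by Tfdp1 and E2f4. Nearest to Hsph1 was Prps1 (0.0716), to Hsp90aa1 Chek1 (0.0544), to Hspb1 Fpgs (0.0809), to Hspe1 Ccne1 (0.0841), to Hspa5 Pura (0.0850), to Xbp1 Map3k5 (0.120) and to Ddit3 Lzts2 (0.151). Dnajb1 varied too little over the groups for such a search.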

How the data were processed

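Per the labels' protocols, the 12 libraries were made from total RNA after ribosomal RNA depletion. The deposited values are raw counts per gene, which featureCounts 1.6.3 took from read pairs (strand option 2) with Ensembl GRCm39 release 104 gene models, per the file headers; the aligner STAR 2.7.9a, the build mm39 and DESeq2 are named in the submitters' processing notes. Strand was used, so opposite-strand genes were kept apart, while reads that fit near-identical copies could be lost. Symbols came from GENCODE M21 by gene identifier (52083 of 55416 identifiers, 94.0%). Of 2 identifiers with the symbol Ddit3, the longer gene was used.

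Libraries were grouped by genotype and state in their titles. The treatment field gives a different RA day for each RA library, but in the titles and the protocol it is day 2, which was used. The test was that of edgeR 4.0.16, run in R 4.3.3 (filterByExpr with minimum count 10, TMM, robust quasi-likelihood fit, 1 mean per group, 8 residual degrees of freedom), with Benjamini-Hochberg adjustment over 17940 genes. Totals of 8678088 to 13597098 counts measure abundant genes closely and Ddit3 before RA loosely. Alternatives were RLE scaling, DESeq2 1.42.0, other filters, protein-coding genes alone, scaling without chromosomes 6, 8, 11 and Y, a null of 1.5-fold, only the compared groups, a replicate block and each library left out. List counts without single libraries or shifted chromosomes were added after seeing the data.

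Genes named from the lists are those with the 2 largest rises or falls per list and comparison, called and at 10 CPM or more in the higher group, any called gene of a list with at most 5 calls, the nearest genes by the likeness measure, and Hsp90ab1, chosen later. The 10 genes and the lists were chosen with earlier results of these data known. Sequences are from RefSeq windows of GRCm38.p6, not the build of the counts.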

Additional observations from a re-analysis of the deposited data

Results flagged for a closer look

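For 8 of the 10 genes the RA change in C48S differed from that in WT in edgeR's test of the difference itself, where 39.4% of all genes did. On the log2 scale, C48S minus WT, the difference was 1.31 for Hspa5, 1.23 for Xbp1, 0.87 for Hspb1, 0.78 for Hsph1 and 0.53 for Hsp90aa1. It was -0.74 for Ddit3, -0.26 for Dnajb1 and -0.20 for Hspe1. The pluripotency marker sums after RA differed between the lines as well, and their part in these values was not tested.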

How the results depend on the processing

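Each of the 50 changes of single genes kept its direction and its side of the threshold under RLE scaling, DESeq2, a filter of 1 CPM in 3 libraries, protein-coding genes alone, scaling without chromosomes 6, 8, 11 and Y, and the replicate block. Libraries of equal replicate number in different groups had correlations of their deviations from the group mean between -0.110 and 0.142. Unequal numbers were not compared, so whether the numbers pair the samples cannot be told. With the replicate block the counts of the 10 genes called were 9, 7, 9, 9 and 8 for the 5 comparisons, as without it. With a fold of 1.5 as the null, 3 of the 10 genes passed for C48S against WT before RA and 2 after RA. For RA in WT 9 passed, as in the main test, for RA in C48S 5 and for the interaction 4. Over all genes 3605 and 2952 passed for the comparisons of the lines before and after RA. For RA in WT and in C48S it was 9060 and 7032, and for the interaction 2257. Leaving out 1 library gave 9 to 9, 7 to 8, 9 to 9, 9 to 10 and 7 to 8 of the 10 genes, and 9189 to 10221, 8889 to 10737, 13687 to 14743, 12706 to 13381 and 6420 to 7771 of all genes. The RA change of Hspa5 in C48S ranged from -0.03 to 0.18, and the interaction of Atf4 from -0.08 to 0.05, with 0.00 without WT undifferentiated replicate 3 and 0.05 without C48S undifferentiated replicate 3; the cause was not tested. The Hspe1 interaction ranged from -0.26 to -0.17 and missed the threshold with no low-count filter (adjusted p = 0.0598). Depth limits Ddit3 before RA, at 34 to 56 counts per library.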
